A study of Mus musculus with 6 samples.

Results

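The Schlafen family is a group of mouse genes named *Slfn*, and the 7 members described here, *Slfn1*, *Slfn2*, *Slfn3*, *Slfn4*, *Slfn5*, *Slfn8*, and *Slfn9*, were chosen by symbol. All 7 were among the 26264 genes of the table. They were measured by bulk RNA sequencing of hematopoietic stem cells (HSCs) sorted by surface markers from bone marrow of 8-week-old, untreated female mice, with 1 library per mouse. The WT group was 3 C57Bl/6 mice. The *Irf1-/-* group was 3 mice of the strain B6.129S2-Irf1tm1Mak/J, which lack interferon regulatory factor 1 (IRF1) in the whole body, so that their HSCs also developed among other cells without IRF1. The comparison asks which transcripts of the family differ in HSCs when IRF1 is missing. Libraries are named by genotype and by the replicate number of the labels (2, 3, or 4).

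Schlafen proteins share an amino-terminal core that in several members binds and cuts RNA, and many of their genes are induced by type I interferon. They fall into a short group (*Slfn1* and *Slfn2*), an intermediate group (*Slfn3* and *Slfn4*), and a long group with a helicase-like carboxyl-terminal part (*Slfn5*, *Slfn8*, *Slfn9*, and *Slfn14*). The family was first described in T cells, where *Slfn2* is needed for quiescence and its protein protects transfer RNA from cleavage.

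Values are normalized counts, that is, reads on a gene divided by a size factor of the library, and a difference is *Irf1-/-* minus WT on the scale of log2(normalized count + 1). A gene was called when its adjusted p in limma was under 0.05 and its absolute log2 fold change was above 0.58. Reads on genes were between 43267486 and 59658080 in WT libraries and between 43138521 and 57281017 in *Irf1-/-* libraries. A single read was worth between 0.823 and 1.13 normalized counts. *Irf1* itself, the deleted gene, was at 10122, 11120, and 12058 normalized counts in WT libraries 2, 3, and 4 and at 9267, 9524, and 9287 in *Irf1-/-* libraries 2, 3, and 4. Every *Irf1-/-* value lay under the lowest WT value, and the log2 fold change, −0.24 with an SE of 0.088, was not called (adjusted p = 0.170, limma). Reads over *Irf1* were thus still counted, and since a count over the whole gene does not show whether its deleted part was read, it does not check the genotype labels.

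The HSC label was set against marker genes. The HSC markers *Kit*, *Ly6a*, *Slamf1*, *Procr*, *Hlf*, *Mecom*, *Fgd5*, *Hoxb5*, and *Ctnnal1* were counted in all 6 libraries. *Kit* was at 80517 to 84044 normalized counts in WT and 77902 to 88715 in *Irf1-/-* libraries, and *Hoxb5*, the lowest of those named, at 452 to 560.4 and 523 to 644. Of these, only *Fgd5* was called, beside 0.960% of all genes tested called higher with limma. *Fgd5* was higher (log2 fold change 0.83, SE 0.087, adjusted p = 9.13e-05, limma), though not called without the trend (0.0511, the highest over the alternatives). Past the adjusted p but short of the fold, *Procr* was higher (0.52, SE 0.099, adjusted p = 0.0112, limma) and *Ly6a* lower (−0.43, SE 0.094, adjusted p = 0.0245, limma). In both, all 3 *Irf1-/-* libraries lay on 1 side of all 3 WT libraries. *Procr* was called without WT library 2 (0.58, 0.0149), within a range from 7.65e-05 to 0.227 over the alternatives. Summed markers reached at most 1345 normalized counts for T cells (mostly *Lck*), 3195 for B cells (mostly *Cd79b*), and 3729 for NK cells (mostly *Nkg7*, with *Gzma* at 0 in all libraries). Those of monocytes and macrophages, with *Itgam* the highest on average, reached 3836 in WT library 3, where *Ly6c2* was at 808 and elsewhere at most at 181. Those of dendritic cells, with *Cd209a* the highest on average, reached 363 in WT library 4, where *Ly6d* was at 59.2 and elsewhere at most at 5.63. The markers of granulocytes and their progenitors, most of it *Lyz2*, summed to 29778, 34267, and 35043 in WT libraries 2, 3, and 4 and to 33538, 39622, and 37159 in *Irf1-/-* libraries 2, 3, and 4. WT library 4 stood apart within the granulocyte list too, with *S100a8* at 1033 normalized counts there and at most 110.0 elsewhere, and *Ly6g* at 46.3 there and at most 1.07 elsewhere. The study defines HSCs as lineage-negative cells positive for Sca-1, c-Kit, and CD150 and negative for CD48, with anti-CD11b and anti-Gr-1 in its lineage stain. Whether mature granulocytes or monocytes were left in any library was not tested. In these 6 lists of other cell types, 4 T cell, 6 B cell, 4 NK cell, 7 monocyte and macrophage, 6 granulocyte, and 6 dendritic cell genes were tested. None was called with limma, edgeR, or DESeq2, beside 0.960% of all genes tested called higher and 0.954% called lower with limma. At an unadjusted p under 0.05 only *Nkg7* was lower, beside 8.07% of all genes tested. Only *Prtn3*, a granule protease gene, was higher, beside 8.38%. *Prtn3* (0.53, SE 0.12, adjusted p = 0.0334, limma) was called without WT library 2 (0.58, 0.0484) or 4 (0.60, 0.0187), within a range from 0.00158 to 0.330 over the alternatives.

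Of 5 megakaryocyte markers, 2 were called lower and 0 higher with limma, edgeR, and DESeq2, beside 0.954% of all genes tested called lower with limma, and at an unadjusted p under 0.05, 3 were lower and 0 higher, beside 8.07% and 8.38%. Their summed level was 46828, 60085, and 44769 in WT libraries 2, 3, and 4 and 40098, 24837, and 35733 in *Irf1-/-* libraries 2, 3, and 4, with *Itga2b* the most abundant. All 5 of these genes had negative log2 fold changes, with TMM factors and quantile normalization too, though *Ppbp* was at 0.0066 without WT library 3. *Itga2b* (adjusted p = 0.0922), *Gp9* (0.391), and *Ppbp* (0.802) were not called, and in *Gp9* and *Ppbp* the groups overlapped. *Itga2b* was called without WT library 4 (−0.67, 0.0449), within a range up to 0.440 over the alternatives. The genes called were *Pf4*, a platelet chemokine (−1.11 ± 0.18, adjusted p = 0.00334, limma), and *Gp1ba*, a platelet receptor subunit (−0.69 ± 0.14, adjusted p = 0.0183, limma). *Gp1ba* was no longer called without WT library 3 (−0.52, adjusted p = 0.0770) or without *Irf1-/-* library 2 (−0.70, 0.0643) or 3 (−0.64, 0.0585), and its adjusted p ranged from 0.000141 to 0.259 over all alternatives. Erythroid markers summed to 3705, 3828, and 2995 in WT libraries and to 2924, 2217, and 2731 in *Irf1-/-* libraries, most of it *Epor*, and the globin genes *Hba-a1* and *Hbb-bt* were at 0 in all 6. Of the 3 erythroid markers tested, 1 was called lower, beside 0.954% of all genes tested with limma. This was the transcription factor *Klf1* (−0.72 ± 0.17, adjusted p = 0.0361, limma). It was not called without WT library 2 (−0.66, 0.117) or 3 (−0.72, 0.109) or without *Irf1-/-* library 2 (−0.83, 0.0583) or 3 (−0.50, 0.0700), with a range from 0.00187 to 0.316 over all alternatives. The part of these markers in the Schlafen values was not tested. In sorted bulk samples, fewer cells of a type and less RNA per cell cannot be told apart.

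Of the 7 Schlafen members, 6 passed the filter on low values (a mean of at least 10 normalized counts over the 6 libraries) and *Slfn1* did not. The only member called was *Slfn2*, which was higher in *Irf1-/-* HSCs, so that 1 of 6 tested members was called higher, against 0.960% of all 17404 genes tested. No member was called lower with limma, against 0.954% of all genes. At an unadjusted p under 0.05, 2 of 6 members were higher (*Slfn2* and *Slfn5*), against 8.38% of all genes tested, and 1 was lower (*Slfn9*), against 8.07%, and edgeR and DESeq2 each called 1 member higher and 0 lower. By the adjusted p alone 1 member was higher, against 1.73% of all genes. In *Slfn2*, *Slfn5*, and *Slfn8* all 3 *Irf1-/-* libraries were above all 3 WT libraries, 3 of 6 members against 10.6% of all genes tested, and in 0 of 6 members all 3 were below, against 9.27%. The median log2 fold change of the 6 members was −0.053, beside −0.0028 over all genes tested, and 3 members had positive and 3 had negative values. These signs were the same with TMM factors and with quantile normalization.

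Levels of the members were compared per kilobase of coding length. In WT HSCs *Slfn2*, which has a coding length of 1137 bases, was the highest member at 3082 ± 345 normalized counts per kilobase (SD, n = 3). *Slfn9* followed at 1624 ± 225 and *Slfn8* at 1521 ± 13.2 normalized counts per kilobase. These neighbors did not differ beyond their spread, and in WT library 4 *Slfn8* (1536) was above *Slfn9* (1365). *Slfn5* was at 531 ± 80.6, *Slfn3* at 293 ± 74.2, *Slfn4* at 29.3 ± 8.39, and *Slfn1* at 4.55 ± 3.71 normalized counts per kilobase, each below the lowest library of the member before it. In *Irf1-/-* HSCs *Slfn2* was at 4984 ± 790 normalized counts per kilobase. By the group means the next places were exchanged, with *Slfn8* at 1708 ± 129 above *Slfn9* at 1337 ± 29.5. *Slfn5* was at 780 ± 153, *Slfn3* at 229 ± 52.9, *Slfn4* at 20.8 ± 7.57, and *Slfn1* at 1.05 ± 1.82 normalized counts per kilobase.

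Of the short group, *Slfn2* was at 3926, 3151, and 3435 normalized counts in WT libraries 2, 3, and 4, and at 6425, 5901, and 4676 in *Irf1-/-* libraries 2, 3, and 4. The lowest *Irf1-/-* library was above the highest WT library, and the *Irf1-/-* libraries were the more spread. The mean rose from 3504 ± 392 to 5667 ± 898 normalized counts (SD, n = 3 each), a ratio of 1.62. The difference on the log2 scale was 0.69 ± 0.12 (SE), with a 95% interval from 0.43 to 0.95 and an adjusted p of 0.00713 (limma), and 3 of 3 *Irf1-/-* libraries were higher than the WT mean. The call was lost only when the variance prior of limma was fitted without an intensity trend (adjusted p = 0.238, against a range from 5.37e-06 to 0.238 over all alternatives). In that fit 7 genes of the whole table were called higher and 33 lower, and of the called genes named here only *Zbp1* was called. *Slfn1*, its neighbor in the cluster and the other short member, was close to absent. It had 5, 1, and 8 reads in WT libraries 2, 3, and 4 and 3, 0, and 0 reads in *Irf1-/-* libraries 2, 3, and 4. The ranges overlapped, and most of these counts lay near the floor of 3 reads used here, which covers counting error only because the libraries have no molecular identifiers. The difference of *Slfn1* in means, 4.62 against 1.07 normalized counts, gave p = 0.2 in an exact two-sided permutation test, whose smallest possible p for 3 against 3 is 0.1.

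Of the intermediate group, *Slfn3* was at 582, 425, and 357 normalized counts in WT libraries 2, 3, and 4, and at 439, 275, and 352 in *Irf1-/-* libraries 2, 3, and 4. The groups overlapped, and WT library 2 alone was above all *Irf1-/-* libraries. Its log2 fold change was −0.35 ± 0.22 (SE), with a 95% interval from −0.83 to 0.13 (adjusted p = 0.50, limma). *Slfn4*, which is known from myeloid cells, was at 48.6, 40.6, and 69.9 normalized counts in WT libraries and at 49.0, 22.5, and 41.5 in *Irf1-/-* libraries, in the same order of replicates. The groups overlapped here too, and the highest value was that of WT library 4, the library with the high *S100a8* and *Ly6g* counts, whose part in the *Slfn4* value was not tested. The log2 fold change of *Slfn4* was −0.52 ± 0.46 (SE), with a 95% interval from −1.51 to 0.48 (adjusted p = 0.663, limma).

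Of the long group, *Slfn5* was at 1558, 1165, and 1509 normalized counts in WT libraries 2, 3, and 4, and at 1723, 2515, and 1971 in *Irf1-/-* libraries 2, 3, and 4. All 3 *Irf1-/-* libraries were above all 3 WT libraries, with *Irf1-/-* library 3 the highest and the gap between the groups small beside their spread. The ratio of means was 1.47, and the log2 fold change of *Slfn5* was 0.55 ± 0.15 (SE), with a 95% interval from 0.23 to 0.87. This passed neither threshold (adjusted p = 0.0665, limma). *Slfn5* was called under none of the alternatives, although DESeq2 gave an adjusted p of 0.00737, the lowest of a range that reached 0.361 over all alternatives, with a log2 fold change of 0.55.

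*Slfn8* and *Slfn9* encode closely related long proteins, and their values lay on opposite sides of 0. *Slfn8* was at 4125, 4152, and 4197 normalized counts in WT libraries 2, 3, and 4, and at 4634, 5037, and 4333 in *Irf1-/-* libraries 2, 3, and 4. The WT libraries were nearly equal and all were below the *Irf1-/-* libraries, but the log2 fold change was 0.16 with an SE of 0.089 (95% interval from −0.03 to 0.36, adjusted p = 0.405, limma). *Slfn9* was at 4851, 4733, and 3730 normalized counts in WT libraries and at 3648, 3739, and 3578 in *Irf1-/-* libraries, in the same order of replicates. Here WT libraries 2 and 3 were high, and WT library 4 lay within the narrow range of the *Irf1-/-* libraries, so that the groups overlapped. The log2 fold change of *Slfn9* was −0.27 ± 0.11 (SE), with a 95% interval from −0.50 to −0.04 and an adjusted p of 0.211 (limma). Without WT library 4 it was −0.39 with an adjusted p of 0.0261 (range over all alternatives 0.0261 to 0.588), still short of the fold that a call required.

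The ratio of *Slfn8* to *Slfn9* within a library, a comparison chosen after the values were seen and given without a test, was 0.850, 0.877, and 1.13 in WT libraries 2, 3, and 4 and 1.27, 1.35, and 1.21 in *Irf1-/-* libraries 2, 3, and 4. *Slfn9* was the more counted of the pair in WT libraries 2 and 3, and *Slfn8* in WT library 4 and in every *Irf1-/-* library. The log2 ratio of *Slfn8* to *Slfn9* was −0.084 ± 0.22 in WT and 0.35 ± 0.077 in *Irf1-/-* HSCs (SD, n = 3), and WT library 4 was the nearest to the *Irf1-/-* libraries. For the intermediate pair, the log2 ratio of *Slfn3* to *Slfn4* was 3.08 ± 0.65 in WT and 3.25 ± 0.27 in *Irf1-/-* HSCs (SD, n = 3), and the libraries overlapped.

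The members also differed in how much their values varied between libraries of a genotype. The coefficient of variation in WT HSCs was 0.868% for *Slfn8*, 11.2% for *Slfn2*, 13.9% for *Slfn9*, 15.2% for *Slfn5*, 25.3% for *Slfn3*, and 28.6% for *Slfn4* (n = 3). In *Irf1-/-* HSCs *Slfn9* was the least variable at 2.21%, followed by *Slfn8* at 7.57%, *Slfn2* at 15.8%, *Slfn5* at 19.6%, *Slfn3* at 23.2%, and *Slfn4* at 36.4%. *Slfn3* and *Slfn4* were the most variable tested members in both genotypes, and also the least counted. The order of *Slfn8* and *Slfn9* was exchanged, but an SD of 3 libraries is itself uncertain. The WT value of *Slfn8* lay below the counting error at its 3684 to 5013 reads per library, so this order is only a description. The depth behind these values differed, with 10760 reads on *Slfn2* in the 3 WT and 17360 in the 3 *Irf1-/-* libraries, against 160 and 112 on *Slfn4*. The members did not share a highest library. Among WT mice, library 2 was highest for *Slfn2*, *Slfn3*, *Slfn5*, and *Slfn9* and library 4 for *Slfn1*, *Slfn4*, and *Slfn8*. Among *Irf1-/-* mice, library 2 was highest for *Slfn1*, *Slfn2*, *Slfn3*, and *Slfn4*, and library 3 for the long members *Slfn5*, *Slfn8*, and *Slfn9*. *Irf1-/-* library 3 was also the lowest for *Slfn3* and *Slfn4*, so that these long members and the intermediate members lay apart in that mouse. This did not extend to other genes of the long group, since *Slfn10-ps* and *Slfn14* were also lowest in *Irf1-/-* library 3 within this genotype.

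Shares of the family counts, which also carry the length of each gene, differed most in *Slfn2* and *Slfn9*. *Slfn2* took 25.0% ± 1.65 of the summed counts of the 7 members in WT and 34.3% ± 3.39 in *Irf1-/-* libraries (SD, n = 3), and the libraries of the 2 genotypes did not overlap. *Slfn9* took 31.6% ± 3.33 in WT and 22.3% ± 1.43 in *Irf1-/-* libraries, again without overlap. Shares of a sum depend on each other, so a higher share of *Slfn2* lowers the rest, and the counts of *Slfn9* themselves overlapped. The share of *Slfn8* was 29.7% ± 2.17 and 28.4% ± 0.873, and that of *Slfn5* was 10.1% ± 1.43 and 12.6% ± 2.16, in WT and *Irf1-/-* libraries. The remaining members took little, with *Slfn3* at 3.22% in WT and 2.17% in *Irf1-/-* libraries, *Slfn4* at 0.381% and 0.232%, and *Slfn1* at 0.0334% and 0.00630%. The shares of *Slfn3* and *Slfn4* did not overlap between the genotypes either, although their counts did. Per kilobase of coding length the share of *Slfn2* was 43.4% in WT and 54.8% in *Irf1-/-* libraries. The summed count of the 7 members was 14023 ± 946 in WT and 16454 ± 1332 in *Irf1-/-* libraries, a ratio of 1.17, with *Irf1-/-* library 4 (14952) within the WT range. Without *Slfn2* the sums were 10519 ± 649 and 10787 ± 703, a ratio of 1.03 that was within the spread.

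Of 5 further genes of the Schlafen name, 4 were in the table, 2 passed the filter, and none was called with limma, beside 0.960% of all genes tested called higher. At an unadjusted p under 0.05 both were higher, beside 8.38% of all genes tested, edgeR called 1 higher, and DESeq2 called none. Of these, *Slfn14* passed the filter only through its *Irf1-/-* libraries, so that its p and calls are a description and support nothing. *Slfn10-ps*, a pseudogene of the long group, was at 1285, 1071, and 839 normalized counts in WT libraries 2, 3, and 4 and at 1591, 1266, and 1385 in *Irf1-/-* libraries. Its groups overlapped narrowly, and the log2 fold change of 0.42 ± 0.15 (SE) was not called (adjusted p = 0.171, limma). *Slfn14*, a long member known as a ribosome-associated ribonuclease of platelets and red cell precursors, had 0, 1, and 5 reads in WT libraries and 18, 16, and 125 reads in *Irf1-/-* libraries 2, 3, and 4. All *Irf1-/-* libraries were above all WT libraries, and *Irf1-/-* library 4 held most of the reads. The fitted log2 fold change of *Slfn14* was 3.83 ± 1.02 (SE) with an adjusted p of 0.0609 (limma) and was not called. Since WT counts lay around the floor of 3 reads, this value depends on the pseudocount and was 2.53 with a pseudocount of 5 and 4.30 with 0.5. *Slfn14* was called with edgeR (adjusted p = 0.0384), with quantile normalization (0.0279), with the replicate block (0.0180), and without WT library 4 (4.54, 0.0237). Its adjusted p ranged from 0.0180 to 0.292 over the alternatives. Without *Irf1-/-* library 4 it did not pass the filter, and DESeq2 gave it no adjusted p. *Slfnl1* and *Slfn5os* were below the filter with at most 16.6 and 7.41 normalized counts in any library, and *Slfnos* was not analysed here. *Slfn5os* is antisense to *Slfn5*, and without strand their reads cannot be told apart.

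Members of a family can share reads. In the GENCODE transcripts with the longest coding sequence, *Slfn8* and *Slfn9* were 92.7% identical over 2733 aligned coding bases, and *Slfn9* and *Slfn10-ps* were 93.5% identical over 2550. *Slfn3* and *Slfn4* were 95.3% identical over 1524 aligned coding bases, whereas the short members *Slfn1* and *Slfn2* were 71.7% identical over 1005. Of all windows of 100 bases along a transcript, 3.71% in *Slfn8*, 4.99% in *Slfn9*, and 8.33% in *Slfn10-ps* occurred unchanged in another Schlafen transcript. In *Slfn2* only 2 of 1565 windows did, both shared with *Slfn4*, and in *Slfn1*, *Slfn3*, and *Slfn5* none did. These are the windows shared among *Slfn1*, *Slfn2*, *Slfn3*, *Slfn4*, *Slfn5*, *Slfn8*, *Slfn9*, and *Slfn10-ps*, and other Schlafen transcripts were not compared. The values of *Slfn8*, *Slfn9*, and *Slfn10-ps* are uncertain to the extent that reads from shared windows were split or dropped.

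All 7 members lie in 1 cluster on mouse chromosome 11, in the RefSeq order (assembly GRCm38.p6) *Slfn5*, *Slfn9*, *Slfn8*, *Slfn2*, *Slfn1*, *Slfn4*, *Slfn3*. *Irf1* is on the same chromosome, with 631 genes of the table between it and the cluster, and whether sequence from the 129S2 strain reaches the cluster was not tested. Of 22 genes next to or within the cluster that are not Schlafen genes, 18 were tested and none was called with limma. Over all genes tested, 0.960% were called higher and 0.954% lower with limma. For the same 18 genes edgeR called none and DESeq2 called 1 higher, beside 295 called higher with DESeq2 in the whole table. At an unadjusted p under 0.05, 2 were higher and 1 was lower, beside 8.38% and 8.07% of all genes tested. The gene called with DESeq2 was *Unc45b*, a myosin chaperone named after its values were seen (0.75 ± 0.20, adjusted p = 0.0647, limma). Their median log2 fold change was 0.0099, beside −0.0028 over all genes tested. *AI662270*, the most abundant of these and the gene between *Slfn3* and *Slfn14*, was at 8089, 9003, and 7890 normalized counts in WT libraries 2, 3, and 4 and at 5540, 6840, and 6418 in *Irf1-/-* libraries. All *Irf1-/-* libraries were lower, but at −0.41 ± 0.098 (SE, log2 scale, adjusted p = 0.0352, limma) the fold for a call was not reached. *Lig3*, the next most abundant, was at 0.043 ± 0.097 on the log2 scale (adjusted p = 0.895, limma), and at −0.051 without WT library 4. Along the cluster the log2 fold changes were positive for *Slfn5*, negative for *Slfn9*, positive for *Slfn8*, *Slfn10-ps*, and *Slfn2*, and negative for *Slfn4*, *Slfn3*, and *AI662270*, and positive for *Slfn14*, with TMM factors and quantile normalization too. With limma only that of *Slfn2* was called, also with TMM factors, and with quantile normalization that of *Slfn14* was called too (adjusted p = 0.0279, within its range from 0.0180 to 0.292).

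The sequence before the start of each member was taken from RefSeq (assembly GRCm38.p6), where all 7 members had an entry, and 250 bases were searched on both strands. The core of interferon-stimulated response elements, searched as GAAA, any 2 bases, and GAAA, occurred in *Slfn5*, *Slfn8*, and *Slfn9*, against 2.98% of all 32851 entries. It ended 39 bases before the start of *Slfn8* (127 in a second RefSeq entry of *Slfn8*), 36 before that of *Slfn9*, and 146 before that of *Slfn5*. The run ACTTCCTGG, which holds the core of ETS factor motifs and was chosen after the sequences were read, occurred in *Slfn1*, *Slfn2*, *Slfn3*, and *Slfn4*, against 0.700% of all entries, and ended 66, 47, 34, and 65 bases before their starts. The sequences of *Slfn8* and *Slfn9* were 85.1% identical over 242 aligned bases, whereas the other pairs of members were between 51.8% and 64.2% identical. Shown are the called member, the other members whose groups lay apart, and *Slfn9* as the near copy of *Slfn8*, 5′ to 3′ toward the gene, with matches to the interferon motif (on either strand) or to ACTTCCTGG in capitals. A match describes letters and is not evidence of a bound site.
*Slfn2* (chr11:83064862-83065111, plus strand): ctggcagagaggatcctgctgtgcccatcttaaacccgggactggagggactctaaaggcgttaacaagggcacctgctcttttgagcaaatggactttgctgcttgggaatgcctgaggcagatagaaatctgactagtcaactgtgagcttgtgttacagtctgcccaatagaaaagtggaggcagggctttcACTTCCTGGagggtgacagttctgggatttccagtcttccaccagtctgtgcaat
*Slfn5* (chr11:82951852-82952101, plus strand): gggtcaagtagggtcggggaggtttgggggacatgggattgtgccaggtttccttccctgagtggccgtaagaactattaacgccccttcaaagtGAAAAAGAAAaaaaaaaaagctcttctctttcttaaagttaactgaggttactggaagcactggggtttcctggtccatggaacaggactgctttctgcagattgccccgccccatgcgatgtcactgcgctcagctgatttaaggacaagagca
*Slfn8* (chr11:83020811-83021060, minus strand): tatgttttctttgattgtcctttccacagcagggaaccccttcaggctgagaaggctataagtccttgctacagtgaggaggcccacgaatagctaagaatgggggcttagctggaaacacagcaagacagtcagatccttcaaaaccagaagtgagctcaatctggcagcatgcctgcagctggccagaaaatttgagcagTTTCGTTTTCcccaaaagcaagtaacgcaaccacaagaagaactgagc
*Slfn9* (chr11:82991831-82992080, minus strand): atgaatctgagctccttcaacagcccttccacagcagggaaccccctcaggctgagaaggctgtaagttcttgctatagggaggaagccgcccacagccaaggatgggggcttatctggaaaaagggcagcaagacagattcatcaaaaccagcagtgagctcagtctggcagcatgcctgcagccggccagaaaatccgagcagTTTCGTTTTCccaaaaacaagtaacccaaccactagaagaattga

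For each tested member the 3 genes outside the family with the nearest pattern over the 6 libraries were found by the root mean square difference of centered log2 values. *Slfn2* was nearest to *Trps1*, *Pwwp3b*, and *Cystm1*, with differences of 0.070, 0.097, and 0.10, beside a spread of 0.38 of *Slfn2* itself. *Slfn5* was nearest to *Plcl1*, *Gstm1*, and *Pomc*, at 0.067, 0.076, and 0.083, beside its own 0.34. Of these 6 genes none was called with limma, and their log2 fold changes were between 0.50 (*Pomc*) and 0.69 (*Pwwp3b*). *Plcl1* was called with TMM factors, with DESeq2, with a mean of at least 50, and without WT library 2 (0.74, adjusted p = 0.0461) or 4 (0.67, 0.0473), within a range from 0.00492 to 0.329 over the alternatives. *Gstm1* was called without WT library 2 (0.59, 0.0202) or *Irf1-/-* library 2 (0.60, 0.0284), within a range from 0.000121 to 0.267. *Pwwp3b* was called with DESeq2 (0.00745, the lowest of a range up to 0.304) and with the replicate block (0.69, 0.0341). *Slfn8* was nearest to *Slc2a1*, *AW146154*, and *Ttc17* at 0.016, 0.022, and 0.025, beside its own smaller spread of 0.10, and *Slfn9* to *Hdgfl2*, *Nfyb*, and *Gtpbp1* at 0.026, 0.037, and 0.040, beside 0.18. *Slfn3* was nearest to *Homer2*, *Arv1*, and *Gm21297*, at 0.11, 0.13, and 0.13, beside 0.33, and *Slfn4* to *D630010B17Rik*, *Ryr2*, and *Cntn1*, at 0.047, 0.058, and 0.095, beside 0.48. Over 6 libraries in 2 groups, likeness of this kind is a description.

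The members were set beside lists of genes related to their known roles. The lists were chosen with earlier results of these data known, so their counts and medians are a description. *Jak1*, a kinase of interferon receptors, was at 0.17 ± 0.089 on the log2 scale and not called (adjusted p = 0.400, limma). Of 36 interferon-induced genes, 13 were called lower and 0 higher with limma, and the same counts were called with edgeR and with DESeq2, beside 0.954% of all genes tested called lower with limma. At an unadjusted p under 0.05, 21 were lower and 0 higher, beside 8.07% and 8.38% of all genes tested. Their median was −0.41, beside −0.053 for the Schlafen members and −0.0028 over all genes tested. The study itself reported several of these genes as lower in the same libraries, among them *Zbp1*, *Ifit3*, and *Gbp3*. The largest falls were those of the nucleic acid sensor *Zbp1* (−4.85 ± 0.28, adjusted p = 1.61e-07, limma), *Ifit3* (−1.89 ± 0.26, adjusted p = 0.00103), and *Gbp3* (−1.33 ± 0.20, adjusted p = 0.00222). *Ifitm3* (−0.046 ± 0.11) and *Irgm1* (−0.27 ± 0.098) were not called, and *Ifitm3* was at 0.043 with quantile normalization and just above 0 without WT library 2 (0.020) or *Irf1-/-* library 2 (0.016) or 4 (0.012).

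Of 9 tested genes of transfer RNA cleavage, processing, ligation, or modification, none was called with limma, edgeR, or DESeq2. Over all genes tested, 0.960% were called higher and 0.954% lower with limma. The list is wider than cleavage, the process *Slfn2* is known to limit. At an unadjusted p under 0.05, 1 of the 9 was higher and 1 lower, beside 8.38% and 8.07% of all genes tested. The median was −0.11, and the most abundant were *Nsun2*, which methylates transfer RNA (−0.13 ± 0.094), and the RNA ligase *Rtcb* (−0.11 ± 0.090). *Rnaset2a* was at 0 in all libraries. Of 17 quiescence genes, 1 was called lower and 0 higher with limma, beside 0.954% and 0.960% of all genes tested, with a median of 0.14. At an unadjusted p under 0.05, 5 were higher and 2 lower, beside 8.38% and 8.07% of all genes tested. For the same list edgeR called 0 higher and 1 lower, and DESeq2 called 1 higher and 1 lower. The gene called higher with DESeq2 was the cell cycle inhibitor *Cdkn1a*, named after its values were seen (0.78, adjusted p = 0.10 with limma). The gene called lower with limma was the antiproliferative *Btg2* (−0.63 ± 0.16, adjusted p = 0.0460). It was not called with TMM factors (−0.62, 0.0510) or quantile normalization (−0.62, 0.0521), without WT library 2 (−0.58, 0.143) or 3 (−0.55, 0.181), or without *Irf1-/-* library 3 (−0.56, 0.121) or 4 (−0.53, 0.192), with a range from 0.00350 to 0.330 over all alternatives. *Rbl2* (0.29 ± 0.085) and *Tsc2* (0.054 ± 0.096, and −0.047 without WT library 4) were not called.

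All 17 proliferation genes had negative log2 fold changes, with a median of −0.51, and the sign was the same with TMM factors and quantile normalization. With limma, edgeR, and DESeq2, 3 were called lower and 0 higher, beside 0.954% of all genes tested called lower with limma. At an unadjusted p under 0.05 all 17 were lower and 0 higher with limma, beside 8.07% of all genes tested that were lower. The genes called were *Top2a* (−0.77 ± 0.16, adjusted p = 0.0177), *Mki67* (−0.67 ± 0.17, adjusted p = 0.0427), and *Aurkb* (−0.63 ± 0.15, adjusted p = 0.0368). *Top2a* was no longer called without WT library 2 (−0.69, adjusted p = 0.0548) or 3 (−0.71, 0.0674) or without *Irf1-/-* library 4 (−0.55, 0.0532), with a range from 6.55e-05 to 0.317 over all alternatives. *Mki67* was not called without WT library 2 (−0.56, 0.143) or 3 (−0.64, 0.130) or without *Irf1-/-* library 2 (−0.69, 0.125) or 4 (−0.47, 0.168), with a range from 0.00204 to 0.365. For *Aurkb* these were WT libraries 2 (−0.58, 0.109) and 3 (−0.57, 0.137) and *Irf1-/-* libraries 3 (−0.69, 0.0565) and 4 (−0.44, 0.142), with a range from 0.00156 to 0.350. *Mcm6* (−0.41 ± 0.11) and *Mcm3* (−0.38 ± 0.12), subunits of the replicative helicase, were the most abundant and were not called. The summed proliferation count was 250327, 277594, and 200310 in WT libraries 2, 3, and 4 and 183533, 191192, and 156077 in *Irf1-/-* libraries, whereas *Slfn2* was higher in the *Irf1-/-* libraries. Within *Irf1-/-* HSCs, library 4 had both the lowest *Slfn2* count and the lowest proliferation sum. Within WT HSCs, library 3 had the lowest *Slfn2* count but the highest proliferation sum. The part of proliferation in the *Slfn2* value was not tested.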

How the data were processed

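RNA was sequenced from sorted HSCs of 3 WT and 3 *Irf1-/-* mice, grouped by the labels. The submitters' processing notes name Trim Galore, HISAT2, and the build mm39, and the authors counted reads per gene with HTSeq-count; annotation and strand setting are not given in the sources used here. The deposited values are a signal derived from counts, namely gene counts divided by a DESeq2 size factor per library. All values (100%) came out as whole reads within 0.05 of a read, so reads were recovered. Libraries of a genotype differed by more than counting error (chi-square per gene 16.0 to 30.0), which shows only that none was a copy of another.

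The comparison of *Irf1-/-* with WT was fitted in limma (version 3.58.1, R 4.3.3) after adding a pseudocount of 1 and taking log2, with a trended variance prior. It covered the 17404 genes whose mean reached 10, and p was adjusted over all of them by Benjamini-Hochberg. limma called 167 genes higher and 166 lower. On recovered reads edgeR 4.0.16 (quasi-likelihood test) called 162 and 161, and DESeq2 1.42.0 called 295 and 209. Other alternatives were pseudocounts of 0.5 and 5, no filter, a mean of at least 50, no trend, quantile normalization, TMM factors, a replicate block, each library left out, the adjusted p alone, and family shares per kilobase. For *Slfn1*, which was too low for the fit, an exact permutation test (two-sided, scipy 1.17.1) was run. The fits were tested on simulated data. Coding lengths came from GENCODE transcripts, alignments from Biopython 1.88, promoters from RefSeq (GRCm38.p6), and figures from matplotlib 3.10.9.

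The members and lists were chosen with earlier results of these data known. The genes named are the members, *Irf1*, the other Schlafen genes, of each related list the called genes (the 3 largest falls and the 3 largest rises where more than 6 were called) and up to 2 uncalled genes with the highest mean, and for each tested member the 3 genes with the nearest pattern. Some genes that the rule or the marker lists cover, a further promoter motif that was searched, and the results that need them, are not reported here. Called or standout cell type markers, such as *Fgd5*, *Procr*, *Ly6a*, *Pf4*, *Gp1ba*, *Klf1*, *S100a8*, *Ly6g*, *Ly6c2*, *Ly6d*, *Nkg7*, and *Prtn3*, and genes called only with DESeq2 were named after their values were seen.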

Additional observations from a re-analysis of the deposited data

How the results depend on the processing

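The log2 fold changes of the 6 tested Schlafen members kept their sign under all alternatives run, and *Slfn2* was the only member called under any of them. Without the intensity trend *Slfn2* was not called, at 0.69, and the members called higher were 0; the cause was not tested. With each library left out, *Slfn2* was between 0.59 and 0.82 (adjusted p at most 0.0450) and was called in all 6 fits. *Slfn5* was then between 0.40 and 0.67, *Slfn8* between 0.11 and 0.22, *Slfn9* between −0.39 and −0.20, *Slfn3* between −0.52 and −0.16, and *Slfn4* between −0.74 and −0.19. *Slfn4*, *Slfn14*, *Cystm1*, and *D630010B17Rik* gave no value with a mean of at least 50, and no fold is given for *Slfn1* under any setting.

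Whether a shared replicate number means a shared day or litter is not given in the sources used here, and the mice were not taken as paired. Deviations of libraries with the same number correlated at −0.094, 0.246, and 0.147, and not every library correlated best with its own number. With the replicate block 219 genes were called higher and 196 lower, the log2 fold change of *Slfn2* was 0.69 (adjusted p = 0.00256), and of the genes compared across the alternatives only *Slfn14* (adjusted p = 0.0180) and *Pwwp3b* (0.69, 0.0341) gained a call and none lost one.

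*Ifitm3* was at 0.043 with quantile normalization and between −0.17 and 0.020 with libraries left out (0.020, 0.016, and 0.012 where positive), *Lig3* was between −0.051 and 0.12, *Tsc2* between −0.047 and 0.12, and *Ppbp* between −0.58 and 0.0066; none was called, and the cause was not tested. Of all values under the alternatives of the other genes covered by the naming rule or past the adjusted p among the markers, and of *Itga2b*, *Gp9*, and *Ppbp*, 737 kept their sign and side of the threshold, 35 lost a call, 17 gained one, and 7, those of *Ifitm3*, *Lig3*, *Tsc2*, and *Ppbp*, changed sign. Over the whole table, 167 genes were called higher and 166 lower, against 295 and 209 with DESeq2 and 7 and 33 without the trend. With fewer libraries the counts were 304 and 265 without WT library 4, 102 and 105 without WT library 3, 104 and 137 without *Irf1-/-* library 2, and 83 and 121 without *Irf1-/-* library 4. Depth limits what can be said of *Slfn1* and of WT *Slfn14*, whose counts lie around 3 reads.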
